A study of Homo sapiens with 4 samples.

Results

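The genes described here are 10 components and targets of the Notch pathway, taken as the rows of the deposited gene table that carry their symbols: the receptors NOTCH1, NOTCH2 and NOTCH3, the ligands JAG1, JAG2 and DLL1, and the target genes HES1, HEY1, NRARP and ATOH1. The table holds 60048 human genes, and each of the 10 symbols matched 1 row. All 10 had a value above 0 in at least 1 library, and 9 passed the filter on low values and entered the test. ATOH1 did not.

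The assay was EU-seq, in which cells take up 5-ethynyl uridine (EU) and the RNA made while it is present is captured and sequenced. All 4 libraries came from HCT116, a human colorectal carcinoma cell line, with the genotype RAD21-mAC, a tag through which the cohesin subunit RAD21 is destroyed when auxin is added. Cohesin is the ring complex that folds chromosomes into loops. The control group received DMSO (2 libraries), while cells of the auxin group (2 libraries) were kept in 0.5 mM indole-3-acetic acid, a natural auxin, for 3 h. Both groups were labelled with 0.5 mM EU for 20 min. Every library came from the tagged line, so the loss of RAD21 and any other response to auxin cannot be told apart here. The labels do not say whether the replicates came from separate cultures, so the p-values measure only the spread between these libraries.

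Notch receptors are single-pass membrane proteins that are activated by ligands of the Jagged and Delta families on a neighbouring cell. Ligand binding exposes the receptor to cleavage by ADAM proteases and then by gamma-secretase, and the released intracellular part joins the DNA-binding protein RBPJ and the MAML coactivators to switch on genes such as HES1, HEY1 and NRARP. HES and HEY proteins are transcriptional repressors, and NRARP limits the pathway as feedback. In the intestinal crypt, Notch signalling keeps progenitors on the absorptive path, and HES1 represses ATOH1, the factor that commits cells to the secretory lineages.

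The promoter sequences below are those of the genes that the results turn on: the classical target HES1, the 3 genes of the set with the lowest auxin-to-control ratios (JAG1, JAG2 and NRARP), and HES2, a HES family gene that passed the test. Each run is the 250 bases before the RefSeq gene start (GRCh38.p14), 5′ to 3′ on the strand of the gene. Capitals mark matches on either strand to the RBPJ core TGGGAA, to the HES-type letters CACGCG and CACGTG, and to the N box CACNAG.
HES1: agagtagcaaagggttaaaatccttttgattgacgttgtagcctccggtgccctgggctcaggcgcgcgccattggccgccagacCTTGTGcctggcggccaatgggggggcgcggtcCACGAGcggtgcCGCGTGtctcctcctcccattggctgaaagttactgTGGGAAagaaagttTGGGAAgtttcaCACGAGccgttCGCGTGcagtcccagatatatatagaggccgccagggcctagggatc
JAG1: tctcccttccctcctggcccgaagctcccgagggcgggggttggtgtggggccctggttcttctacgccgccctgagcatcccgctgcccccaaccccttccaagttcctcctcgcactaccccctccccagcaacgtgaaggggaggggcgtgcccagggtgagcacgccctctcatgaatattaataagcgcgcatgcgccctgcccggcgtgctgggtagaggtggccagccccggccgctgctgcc
JAG2: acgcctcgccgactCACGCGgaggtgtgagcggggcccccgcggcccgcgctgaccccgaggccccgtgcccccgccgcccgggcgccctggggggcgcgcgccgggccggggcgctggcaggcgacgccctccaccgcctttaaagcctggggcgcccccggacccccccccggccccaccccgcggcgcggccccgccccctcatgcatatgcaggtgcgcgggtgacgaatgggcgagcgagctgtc
NRARP: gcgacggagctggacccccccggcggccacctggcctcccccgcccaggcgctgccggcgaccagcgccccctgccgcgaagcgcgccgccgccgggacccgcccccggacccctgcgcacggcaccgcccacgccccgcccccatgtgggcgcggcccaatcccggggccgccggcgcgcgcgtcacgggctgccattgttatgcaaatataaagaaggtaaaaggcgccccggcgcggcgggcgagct
HES2: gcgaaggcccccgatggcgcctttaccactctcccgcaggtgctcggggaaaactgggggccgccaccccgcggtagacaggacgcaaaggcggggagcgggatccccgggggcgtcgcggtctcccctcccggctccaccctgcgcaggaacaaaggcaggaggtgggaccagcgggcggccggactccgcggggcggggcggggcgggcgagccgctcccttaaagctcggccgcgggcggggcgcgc
The HES1 run lies at chr3:194135898-194136147 on the plus strand, JAG1 at chr20:10674000-10674249, JAG2 at chr14:105168777-105169026, NRARP at chr9:137302272-137302521 and HES2 at chr1:6419920-6420169, the last 4 on the minus strand. The start of JAG2 in the deposited table lies a little upstream of the RefSeq start.

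HES1 held the RBPJ core at 2 places, beginning 84 and 70 bases before the start, and the first of them read GTGGGAA in full. It also held CACGCG at 2 places and CACNAG at 3. Of the 8 genes of the set found in the promoter table (all but DLL1 and HEY1), 1 held TGGGAA in this window, namely HES1, against 20.9% of 34943 promoters of the same length, so a promoter without it is the common case and NOTCH1, NOTCH2, NOTCH3 and ATOH1 lacked it as well as JAG1, JAG2 and NRARP. The longer GTGGGAA was also in HES1 alone, against 5.41% of promoters. CACGCG was in JAG2, HES1 and ATOH1 (9.71% of promoters), CACNAG was in NOTCH3, HES1 and ATOH1 (32.1%), and CACGTG was in none of the 8 (6.32%). HES2 held none of these letters in its window. GTGGGAA contains TGGGAA, and the marked matches do not overlap each other. These are matches of letters in a short window, and no factor binding was measured.

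The deposited values are a scaled signal per gene, not read counts, so the reads behind each value are unknown. Totals on the deposited scale ran from 61135244 to 93113007 per library, and all values given here were divided by a factor per library from trimmed means of M-values, which removes any change in total nascent RNA. All 8 epithelial and HCT116 markers (such as EPCAM, KRT8 and CDH1) passed the filter, with a median control signal of 158 per kb of gene span, although CDH17 was at 1.71 per kb. The 12 markers of leukocytes, fibroblasts, endothelium and liver had a median of 1.82 per kb, the highest being COL1A1 at 37.4, and their summed signal was 1290 and 1540.2 in control and 1705 and 1975 in auxin. Of the 20 markers 19 were tested and none passed, and the part of the difference in that sum in the results below was not tested. The table does not separate strands: genes lying wholly inside 1 gene of the opposite strand carried a median 0.970 times the signal per kb of that gene (1815 genes), against 1 for inner genes of the same strand (726 genes).

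Signal per kb of span, introns included, ordered the genes in control cells from JAG2 at 376 ± 48.9, through NRARP at 299 ± 23.4, NOTCH1 at 250.3 ± 61.8, HES1 at 238 ± 85.7, JAG1 at 126 ± 20.8, NOTCH2 at 64.6 ± 5.39, NOTCH3 at 46.8 ± 3.37 and DLL1 at 17.8 ± 7.45, to HEY1 at 2.95 ± 1.15 (SD, n = 2 each). In that order the libraries of NRARP and NOTCH1 overlapped, as did those of NOTCH1 and HES1, so these neighbours did not differ beyond their spread, while the other neighbours were apart. ATOH1 was listed at 0 in both control libraries. JAG2 lay above 89.9% of tested protein-coding genes in control signal per kb, NRARP above 85.9%, NOTCH1 above 81.9%, HES1 above 80.8% and HEY1 above 16.2%. With auxin, HES1 came first at 287 ± 40.6 per kb, above NOTCH1 at 208 ± 55.3, JAG2 at 196 ± 78.3 and NRARP at 181 ± 35.8. The libraries of NOTCH1 and JAG2 overlapped, as did those of JAG2 and NRARP and those of JAG1 (73.6 ± 9.51) and NOTCH2 (68.0 ± 1.43).

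**Figure D1:**
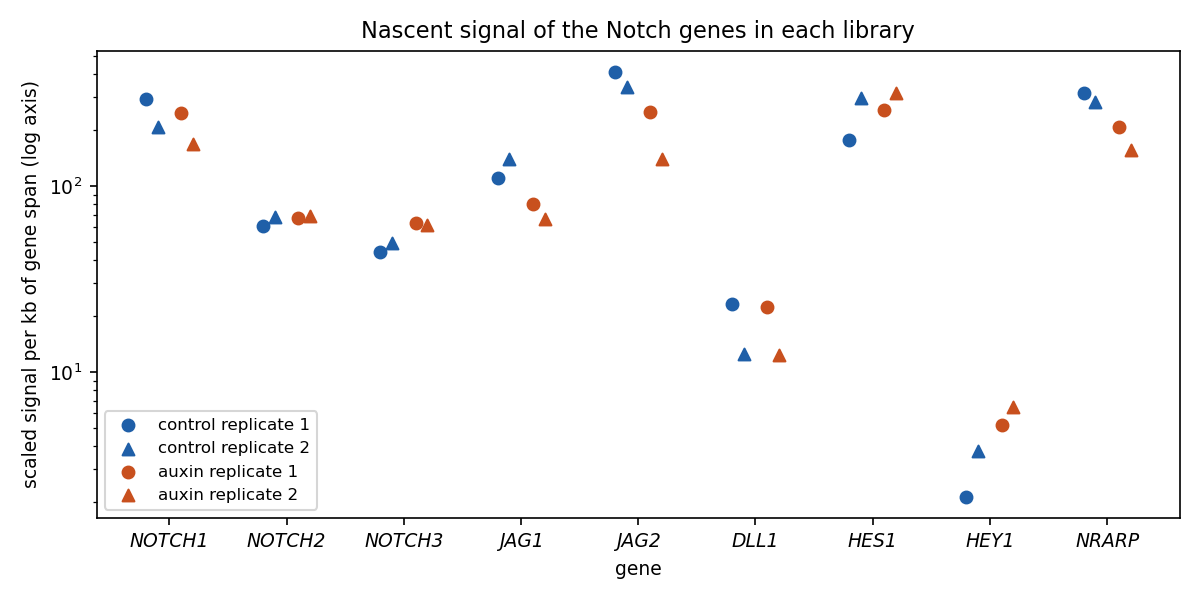
Scaled nascent signal per kb of gene span (log axis) for the 9 genes with signal in every library, 1 point per library, control in blue and auxin in orange, circles for replicate 1 and triangles for replicate 2. JAG2, NRARP, NOTCH1 and HES1 lie highest, HEY1 lies lowest at 2.14 to 6.49, and ATOH1 is left out because 3 of its libraries are at 0.

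Whether auxin changed the nascent signal of these genes was asked with limma across all genes. None of the 9 tested genes passed an adjusted p of 0.05, against 0.737% of 39464 genes tested. At an unadjusted p under 0.05 there were 4 of the 9 (JAG1, JAG2 and NRARP lower and NOTCH3 higher with auxin), against 10.3% of all genes. In 5 of the 9 the auxin libraries did not overlap the control libraries, 2 higher and 3 lower, against 38.3% of all genes (18% higher and 20.2% lower). With a replicate block added, 4 of the 9 passed an adjusted p of 0.05 (JAG1, JAG2 and NRARP lower, NOTCH3 higher), against 10.9% of all genes. All genes shared 1 trend of spread in that fit. Over the 9 genes the log2 fold change had a median of -0.037, beside 0.0013 over all genes, and single libraries set its sign and size: with control replicate 1 left out it came to 0.0020, with control replicate 2 left out to -0.47, with auxin replicate 1 left out to -0.46 and with auxin replicate 2 left out to 0.056, and scaling by library total gave 0.0059. Without auxin replicate 1, 2 of the 9 passed, JAG1 and JAG2, while none passed with any other single library left out. Such a fit leaves 1 library in 1 group, which is assumed to vary like the pair in the other group. Without either auxin library the prior degrees of freedom were also infinite, so all genes shared 1 trend of spread, and the p-values of those fits are not replicated evidence of a change. Over all genes, 291 passed (130 higher, 161 lower), against 147 with control replicate 1 left out, 164 with control replicate 2 left out, 679 with auxin replicate 1 left out and 534 with auxin replicate 2 left out, and 0 in a fit without a trend of spread on signal (3208 at an unadjusted p under 0.05).

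**Figure D2:**
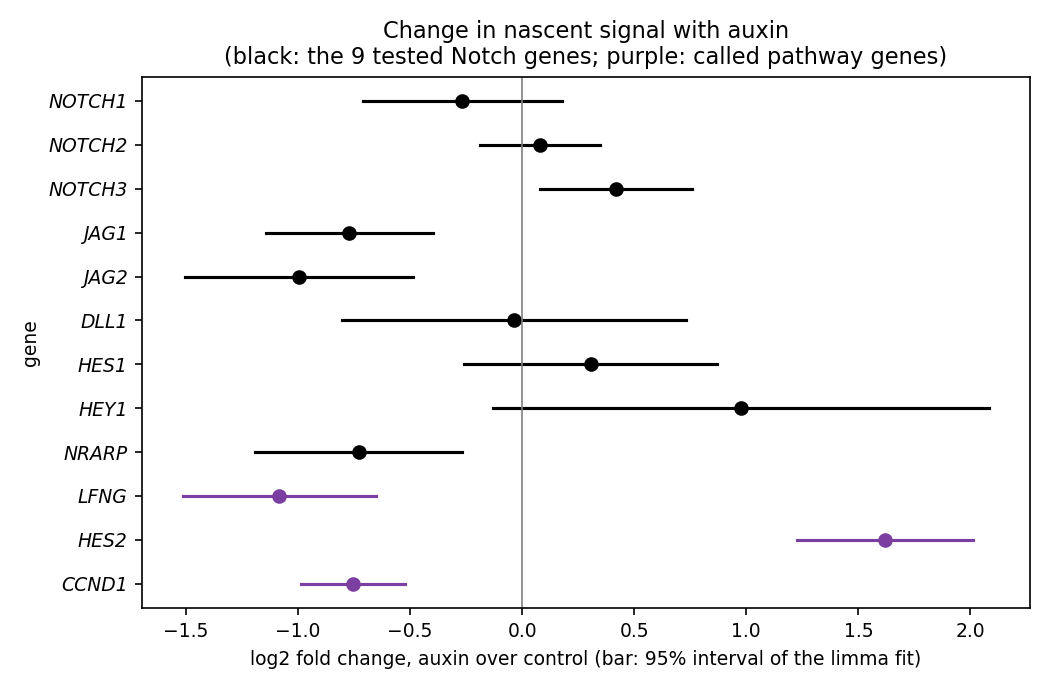
Log2 fold change of auxin over control (point) with the 95% interval of the limma fit (bar), in black for the 9 tested Notch genes and in purple for the 3 other pathway genes with an adjusted p under 0.05. The intervals of JAG1, JAG2 and NRARP lie below 0 and that of NOTCH3 above it before adjustment for the number of genes tested, and that of HES2 runs from 1.23 to 2.01.

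The 2 Jagged ligands had the lowest auxin signal relative to control among the ligands and receptors. JAG1 (ENSG00000101384, GRCh38 chromosome 20, 10637684 to 10673999, minus strand), a transmembrane ligand, had a scaled signal of 4037 and 5106 in the control libraries and 2916 and 2427 in the auxin libraries. Both auxin libraries lay below both control libraries. In these bulk libraries, fewer cells that transcribe a gene and less RNA per cell cannot be told apart. The means were 4572 ± 755 and 2671 ± 345 (SD, n = 2 each), and the log2 fold change was -0.77 (SE 0.17, 95% interval -1.14 to -0.40), which did not pass the test (limma unadjusted p = 9.19e-04, adjusted p = 0.0830). Without auxin replicate 1 its adjusted p was 0.0109, from a fit with 1 auxin library. At its 5′ end, 1305 bases of JAG1 are shared with the lncRNA gene AL050403.2 of the opposite strand, which had a log2 fold change of -0.66 (adjusted p = 0.309). The signal of the shared bases cannot be divided between the pair, so that change is not independent of JAG1.

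JAG2 (ENSG00000184916, chromosome 14, 105140982 to 105168824, minus strand), the second Jagged ligand, had 11435 and 9510.5 in control and 6997 and 3914 in auxin. Again no auxin library reached a control library, and the auxin libraries stood further from each other than the control libraries did. The means were 10473 ± 1361 and 5456 ± 2179.7 (SD, n = 2 each), and the log2 fold change was -0.99 (SE 0.23, 95% interval -1.504 to -0.49, limma unadjusted p = 0.00140, adjusted p = 0.0999). Its size rested on the auxin libraries, being -1.40 without auxin replicate 1 and -0.58 without auxin replicate 2, against -0.85 with control replicate 1 left out and -1.13 with control replicate 2 left out. The lncRNA gene AL512356.1 covers 16631 bases of JAG2 on the same strand and had a log2 fold change of -0.76 (adjusted p = 0.184), and the table cannot divide that signal between the pair.

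DLL1 (ENSG00000198719, chromosome 6, 170289701 to 170306565, minus strand), a Delta-family ligand, had 389.7 and 212 in control and 379 and 207 in auxin. The groups overlapped almost completely, and in each group replicate 1 was the higher library. The log2 fold change was -0.037 (SE 0.35, 95% interval -0.80 to 0.73; adjusted p in limma = 0.994), so changes inside that interval could not be told from none at this spread. FAM120B, on the opposite strand, covers 94.1% of DLL1, and the signal of the pair cannot be told apart. Averaged over the libraries, DLL1 carried 17.6 per kb and the whole of FAM120B 89.7.

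**Figure D3:**
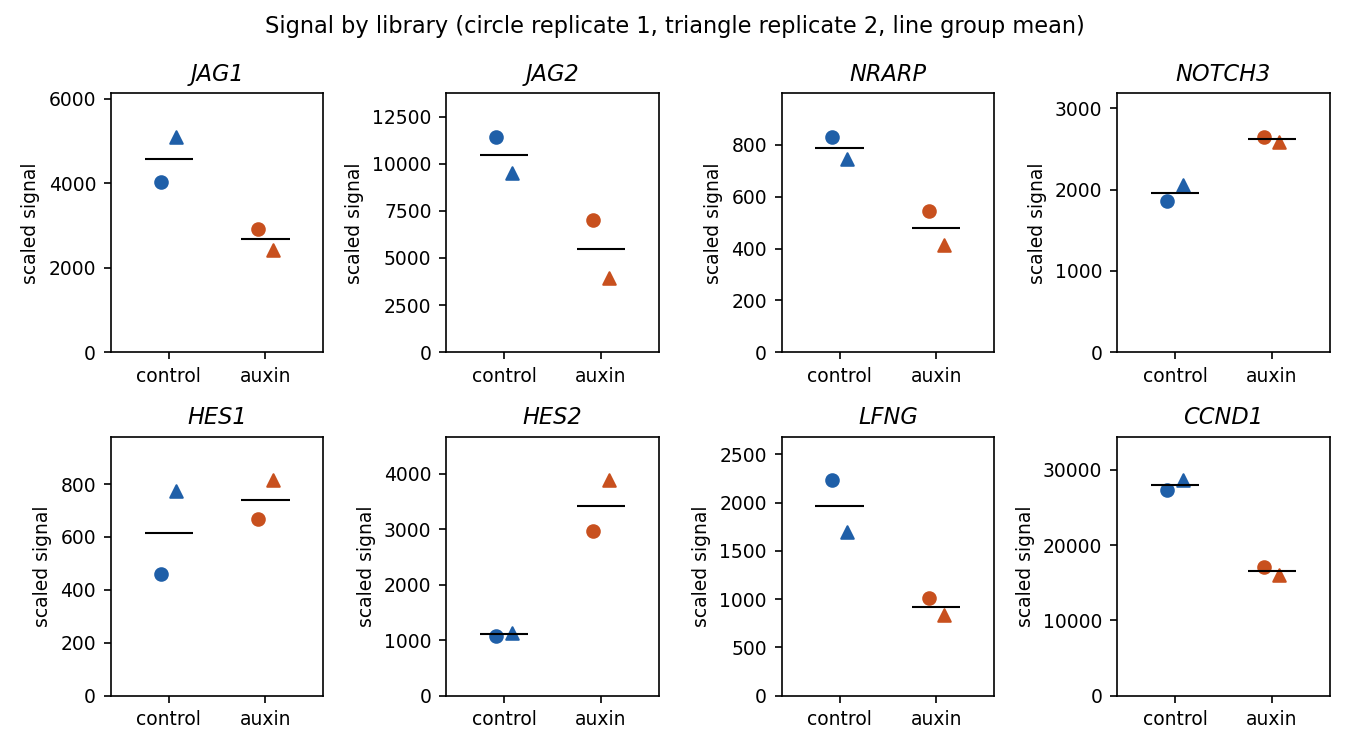
Scaled signal (linear axes from 0) of 8 genes in each library, control in blue and auxin in orange, circles for replicate 1, triangles for replicate 2 and a line at each group mean. JAG1, JAG2, NRARP, LFNG and CCND1 lie lower in both auxin libraries, NOTCH3 and HES2 lie higher, and the groups of HES1 overlap.

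The receptors showed no common direction. NOTCH1 (ENSG00000148400, chromosome 9, 136494433 to 136546048, minus strand), a receptor of the intestinal crypt, had 15175 and 10664 in control and 12773 and 8738 in auxin. The groups overlapped. Its log2 fold change was -0.27 (SE 0.20, 95% interval -0.71 to 0.18; adjusted p in limma = 0.773), and it came to 0.0020 with control replicate 1 left out and to 0.0057 with auxin replicate 2 left out. In the fit with a replicate block its 95% interval was -0.46 to -0.074 (adjusted p in limma = 0.0580). NOTCH2 (ENSG00000134250, chromosome 1, 119911553 to 120069662, minus strand) is the longest gene of the set at 158110 bases. It had 9606 and 10811 in control and 10596 and 10916 in auxin. These groups overlapped too, with a log2 fold change equal to 0.078 (SE 0.12, 95% interval -0.19 to 0.35, adjusted p = 0.941). The table also lists 4 NOTCH2NL genes, near-identical partial copies of NOTCH2, and how reads common to these copies were assigned is not given in the sources used here, so the value of NOTCH2 is uncertain.

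NOTCH3 (ENSG00000074181, chromosome 19, 15159038 to 15200995, minus strand), a receptor best known from vascular smooth muscle, had 1864 and 2064 in control and 2654 and 2591 in auxin. Both auxin libraries were above both control libraries. The means were 1964 ± 142 and 2622 ± 44.5 (SD, n = 2 each), and the log2 fold change was 0.42 (SE 0.15, 95% interval 0.082 to 0.76), which did not pass the test (limma unadjusted p = 0.0198, adjusted p = 0.333). Leaving out single libraries moved it between 0.36 and 0.49. The summed signal of the 3 endothelial markers was 583 and 649.7 in control and 679 and 816 in auxin. That of the 3 fibroblast markers was 597 and 773 in control and 919.5 and 1030.0 in auxin, nearly all of it from COL1A1 (means of 656 ± 108 and 943 ± 73.7; SD, n = 2 libraries each), while DCN was at 21.4 in both groups and COL3A1 at 7.51 and 10.2. None of these markers passed the test, and the marker lists held none for smooth muscle. Every library came from the HCT116 line, and whether these marker sums bear on the NOTCH3 value was not tested.

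Among the targets of the set, NRARP, the ankyrin-repeat feedback inhibitor of Notch signalling, was the lowest relative to control. NRARP (ENSG00000198435, chromosome 9, 137299631 to 137302271, minus strand) had 832 and 745 in control and 546 and 412 in auxin. No auxin library reached a control library. The means were 789 ± 61.7 and 479 ± 94.6 (SD, n = 2 each), and the log2 fold change was -0.73 (SE 0.21, 95% interval -1.19 to -0.27), which did not pass the test (limma unadjusted p = 0.00542, adjusted p = 0.188). It was -0.92 without auxin replicate 1 and -0.53 without auxin replicate 2. The lncRNA gene BX255925.4 of the opposite strand shares 559 bases with NRARP.

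HES1 (ENSG00000114315, chromosome 3, 194136148 to 194138732, plus strand) is the repressor whose promoter holds the RBPJ core letters shown above. It had 459.6 and 773 in control and 667 and 815 in auxin. The groups overlapped, and control replicate 1 was the lowest library. The log2 fold change was 0.31 (SE 0.25, 95% interval -0.26 to 0.87; adjusted p in limma = 0.814), and its sign turned without control replicate 1 (-0.052). It was 0.68 without control replicate 2. HES1 overlaps no other gene of the table.

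HEY1 (ENSG00000164683, chromosome 8, 79762371 to 79767542, minus strand), a HES-related repressor best known from heart and vessels, had 11.1 and 19.5 in control and 26.7 and 33.6 in auxin. Both auxin libraries were above both control libraries, at levels close to the filter on low values. The log2 fold change was 0.98 (SE 0.50, 95% interval -0.13 to 2.08; adjusted p in limma = 0.563), and it ran from 0.61 without control replicate 1 to 1.36 without control replicate 2. ATOH1 (ENSG00000172238, chromosome 4, 93828753 to 93830964, plus strand), the secretory-lineage factor that HES1 represses, was listed at 0 in both control libraries and in auxin replicate 1, and at 3.36 in auxin replicate 2. It was not tested, and no fold is given.

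**Figure D4:**
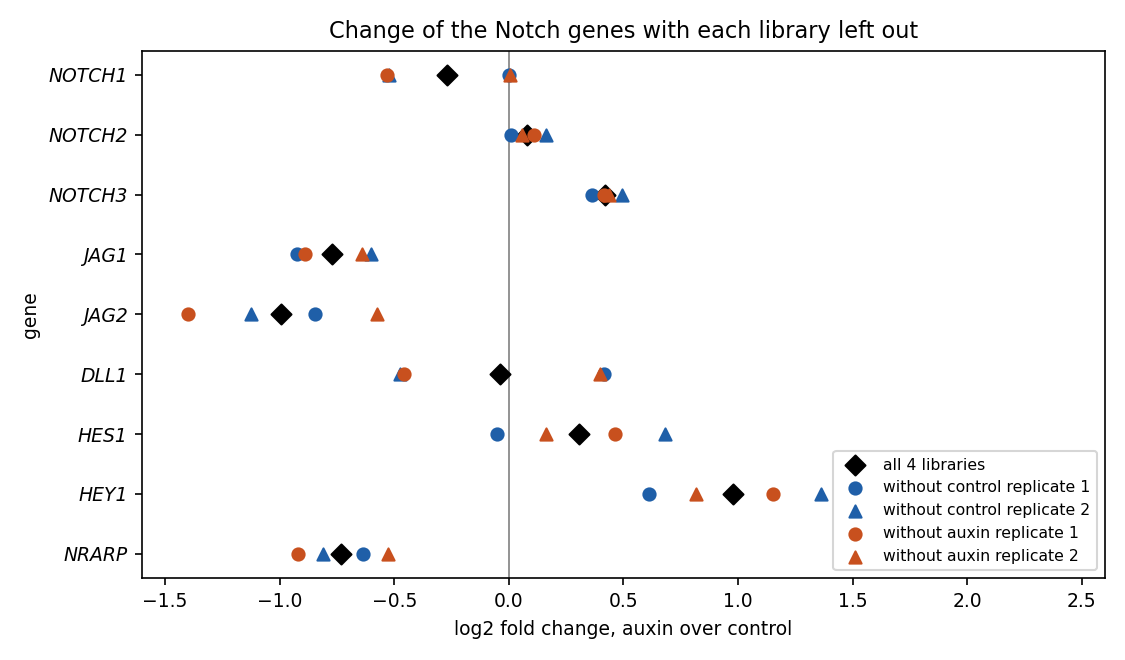
Log2 fold change of auxin over control for the 9 tested Notch genes with all 4 libraries (black diamond) and with each library left out (blue for control, orange for auxin, circle for replicate 1, triangle for replicate 2). JAG1, JAG2 and NRARP stay below 0 and NOTCH2, NOTCH3 and HEY1 above it, and NOTCH1, DLL1 and HES1 cross it.

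JAG1 had the smallest p of the set, and its surroundings and closest patterns were therefore examined. The nearest tested genes that do not overlap it are SLX4IP, 9653 bases away, with a log2 fold change equal to -0.15 (SE 0.14; adjusted p in limma = 0.853), and the lncRNA gene LINC01752, 22949 bases away, at -0.39 (SE 0.37, adjusted p = 0.853). Of the 20 such flanking genes of the whole set, none passed an adjusted p of 0.05 and 1 had an unadjusted p under 0.05, with log2 fold changes from -1.15 to 1.07. Over all genes the shares were 0.737% and 10.3%, so the flanking genes did not stand out by count. By Euclidean distance of centred log2 values over the 4 libraries, the protein-coding genes closest to JAG1 among 15994 with a mean of at least 50 were BBS10 (distance 0.071), FAM107A (0.11) and C3orf80 (0.11). Their log2 fold changes were -0.82, -0.69 and -0.81, and none passed the test (adjusted p = 0.143, 0.448 and 0.218). These genes were chosen for that closeness, so fold changes near that of JAG1 follow from the choice.

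A wider list of 59 pathway genes, grouped by role and drawn up with earlier results of these data known, was read from the same fit. Of these 53 were tested, and 3 passed an adjusted p of 0.05: HES2 rose, and LFNG and CCND1 fell. That is 1 higher (0.329% over all genes) and 2 lower (0.408%). Over the 53 genes the median log2 fold change was -0.060, beside 0.0013 over all genes. The count was 1 without control replicate 1 (HES2), 2 without control replicate 2 (HES2 and LFNG), 4 without auxin replicate 1 and 5 without auxin replicate 2, and 1 on the deposited scale (HES2).

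In the HES and HEY family, 6 of 7 genes were tested, 1 rose and 5 did not pass. HES2 (ENSG00000069812, chromosome 1, 6415232 to 6419919, minus strand), a HES repressor with no overlapping gene, had 1069.8 and 1139.6 in control and 2964 and 3890 in auxin. Both auxin libraries were above both control libraries. The means were 1105 ± 49.4 and 3427 ± 655 (SD, n = 2 each), and the log2 fold change was 1.62 (SE 0.18; adjusted p in limma = 0.00292). It passed without any single library, at log2 fold changes from 1.42 to 1.83, but not in the fit without a trend of spread on signal (adjusted p = 0.485). Whether HES2 answers to Notch in these cells was not tested. HEY2, a relative of HEY1, was listed at 3.41 and 5.12 in control and 16.9 and 15.7 in auxin (log2 fold change 1.73, SE 0.68, adjusted p = 0.392). It passed the filter on low values only through its auxin libraries, so it had to differ upward to be tested, and its value is a description only. HES4, HES6, HES7 and HEYL had log2 fold changes between -0.35 and 0.48.

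Of the 5 glycosylation genes, whose enzymes add sugars to Notch receptors, all were tested, 1 fell and 4 did not pass. LFNG (ENSG00000106003, chromosome 7, 2512529 to 2528427, plus strand), the fringe enzyme that favours Delta over Jagged ligands, had 2233 and 1691 in control and 1007 and 833 in auxin. The groups were apart. The means were 1962 ± 383 and 919.9 ± 123 (SD, n = 2 each), and the log2 fold change was -1.08 (SE 0.19; adjusted p in limma = 0.0368). The call was lost without control replicate 1 (-0.87, adjusted p = 0.161), with scaling by library total (0.0551), with no filter (0.0509), on the deposited scale (0.825) and in the fit without a trend (0.511). Its relative MFNG was at 0.38 (adjusted p = 0.529) and RFNG at -0.19 (0.858).

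The 2 tested genes among the 3 other targets lay lower in auxin, and 1 of them passed. CCND1 (ENSG00000110092, chromosome 11, 69641156 to 69654474, plus strand), which encodes cyclin D1, had 27312 and 28634 in control and 17086 and 16031 in auxin, with no overlap. The means were 27973 ± 935 and 16559 ± 746 (SD, n = 2 each), and the log2 fold change was -0.76 (SE 0.10; adjusted p in limma = 0.0108). The call was narrowly lost with control replicate 1 or control replicate 2 left out (adjusted p = 0.05001 and 0.0504), and it was not made on the deposited scale (1) or in the fit without a trend (0.514). MYC had a log2 fold change of -0.61 (adjusted p = 0.106). Both genes answer to many pathways besides Notch.

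No gene passed in the other 5 role lists, of which cleavage held 3 genes at an unadjusted p under 0.05 in limma, the transcription complex 2, ubiquitin and trafficking 1, the secretory lineage 1 and the other receptors and ligands 0, against 10.3% of all genes tested. The lists are short, and 1 of 12, as in ubiquitin and trafficking, is near that share. Among the 8 cleavage genes, all tested, ADAM10, the protease of the first cut, had the smallest p (log2 fold change -0.36, SE 0.13, limma adjusted p = 0.314). The other 7, which include the gamma-secretase subunits, were above 0, as were 19815 of all 39464 genes tested. The highest was APH1B at 0.62 (SE 0.24, limma adjusted p = 0.385), with a control signal of only 5.80 per kb. In the list of ubiquitin ligases and trafficking proteins, 12 of 13 were tested, with NUMB, an inhibitor that removes Notch from the membrane, at 0.57 (SE 0.12, adjusted p = 0.0638). NUMB passed with scaling by library total (0.0406) and without auxin replicate 1 (0.0239). In the transcription complex, all 10 tested, CREBBP, a histone acetyltransferase recruited by MAML proteins, was at 0.38 (SE 0.11, adjusted p = 0.205), and the DNA-binding subunit RBPJ at -0.25 (SE 0.13, adjusted p = 0.584). MAML2, one of the coactivators, was at -1.03 (SE 0.30, adjusted p = 0.206), a value picked out after it was seen.

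Of the secretory lineage genes of the gut, the genes downstream of ATOH1 in the crypt, 5 of 7 were tested and none passed. All 5 had log2 fold changes below 0, from -0.64 to -0.051, as did 19649 of all 39464 genes tested. In 3 of the 5 both auxin libraries lay below both control libraries, against 20.2% of all genes. The groups of MUC2 and CHGA overlapped, and MUC2 was close to the filter on low values (5.10 and 10.2 in control, 10.7 and 4.48 in auxin). SPINK4, a goblet cell gene, had the smallest p (-0.64, SE 0.19, limma adjusted p = 0.224). NEUROG3 was listed at 0 in all 4 libraries. Among the 5 tested of 6 other receptors and ligands, DNER, a non-canonical ligand, had the smallest p (0.39, SE 0.20, adjusted p = 0.561), and NOTCH4, DLL3, DLL4 and DLK2 lay between -0.15 and 0.16.

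**Figure D5:**
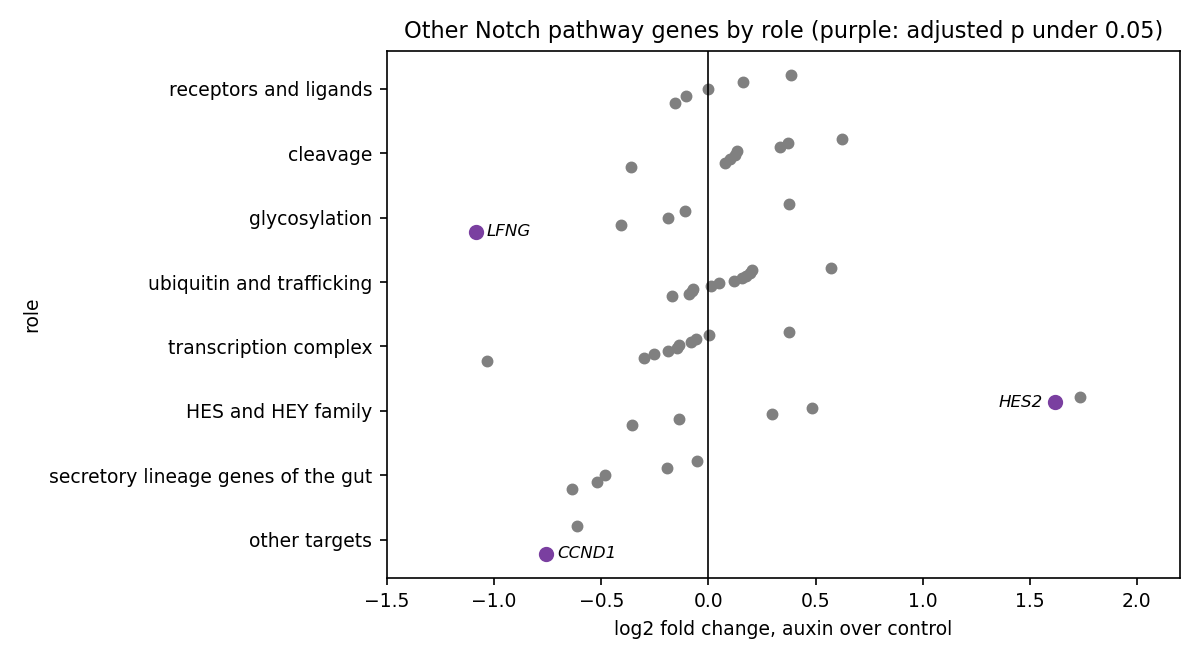
Log2 fold change of auxin over control for the 53 tested genes of the wider pathway list, 1 point per gene, in rows by role, with genes past an adjusted p of 0.05 in purple and named. HES2 lies at 1.62, LFNG at -1.08 and CCND1 at -0.76. The 5 tested secretory lineage genes lie below 0, as do 19649 of all 39464 genes tested.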

How the data were processed

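The authors deposited 1 table with a scaled signal per gene and library, gene coordinates and span. The submitters' processing notes name Trimmomatic 0.39, Bowtie2 2.4.5, deepTools 3.5.1 and the builds hg38 and dm6, with no role. Counter and scaling are not given in the sources used here. A misspelt control column was assigned by its replicate number. Starts count from 0 (of 37746 symbols matched to RefSeq on GRCh38, 19990 starts lay 1 lower) and are printed 1 higher.

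Genes with at least 10 (at median library total) in 2 libraries and a total of 15 were tested. Scaling factors were trimmed means of M-values, with 30% trimmed from each end by ratio and 5% by level, and log2(value + 1) was fitted with limma 3.58.1 in R 4.3.3 (lmFit, eBayes with an intensity trend), with Benjamini-Hochberg adjustment over all genes tested at 0.05. Log2 fold changes on this scale understate low genes. The procedure was tested on data simulated with its own fitted spread and independent noise, which does not test whether that spread holds here. Python 3.11.15, pandas 2.3.3 and matplotlib 3.10.9 were used otherwise. Fly spike-in signal was not analysed here.

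The set, the lists and the tests were chosen with earlier results of these data known. Named are the 10 genes and, of the wider list, those called, those with the smallest p in each role and those picked out after their values were seen (HEY2, HES4, HES6, HES7, HEYL, MFNG, RFNG, MYC, RBPJ, MAML2, NEUROG3, NOTCH4, DLL3, DLL4 and DLK2). The flanking genes and closest patterns are given for the gene with the smallest p. Alternatives were other scalings, pseudocounts and filters, a replicate block, no trend, each library left out, and a longer motif.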

Additional observations from a re-analysis of the deposited data

How the results depend on the processing

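With 2 libraries a group and unknown read depth, precision rests on the spread between these libraries. The signs of NOTCH2, NOTCH3, JAG1, JAG2, HEY1 and NRARP and of the 8 pathway genes named as called or of smallest p held under every alternative run, and none of the 9 Notch genes passed under the other scalings, pseudocounts and filters or without a trend. The signs that turned were those of NOTCH1 (-0.53 to 0.0057 over the libraries left out, and 0.0020 when that was control replicate 1), of DLL1 (-0.47 to 0.42 over the libraries left out, and 0.0059 with scaling by library total), and of HES1 (-0.052 to 0.68). Between libraries of the same replicate number (1, then 2), the log2 difference of auxin from control was -0.25 and -0.29 for NOTCH1. It was -0.040 and -0.034 for DLL1, and 0.54 and 0.077 for HES1. The causes of the turned signs were not tested. Leaving out each library gave 147 to 679 genes called over all genes, 0 to 2 of the 9, 1 to 5 of the wider list, and a median of the 9 genes between -0.47 and 0.056. On the deposited scale 55 genes were called over all genes and 1 of the wider list, and without a trend 0 and 0. The motif count was 1 with either form.

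Replicates share only a number in the labels, which do not say what libraries of the same number had in common. Across genes, the differences between replicates correlated between groups (Pearson's r 0.23, and 0.46 where the mean reached 50). The main fit does not model such a shared difference. Adding the replicate block raised the calls to 4316 (10.9% of genes tested; 1883 were higher and 2433 lower), with 4 of the 9 among them (JAG1, JAG2 and NRARP lower, NOTCH3 higher) and 14 of the wider list. That fit had infinite prior degrees of freedom, so all genes shared 1 trend of spread.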

Other observations

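DLL1 and NOTCH1 differed more between the replicates of each group than between the groups, and by a like amount in control and auxin. On the log2 scale DLL1 was different between replicate 2 and replicate 1 by -0.87 in control and -0.87 in auxin, and NOTCH1 by -0.51 and -0.55. HES1 was higher in replicate 2 by 0.75 in control and 0.29 in auxin, which are unlike amounts. These differences were not tested.

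Each of NOTCH1, NOTCH3, JAG1 and JAG2 holds a miRNA gene on its own strand, namely MIR4673, MIR6795, MIR6870 and MIR6765. Their signal lies within the host span and is not independent of it.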
